A study of Mus musculus with 8 samples.

Results

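The neurons described here are the medium spiny neurons (MSNs) and the local neurons of the mouse striatum. They comprise 7176 of the 14690 annotated striatal cells, and the whole series holds 23687 annotated cells. Cells that the deposited annotation calls D1 or D2 were pooled as MSNs (3904 and 2451 cells, 6355 in all), and the 821 cells called Inhib were taken as interneurons. The comparison asks which genes separate projection neurons from local GABAergic and cholinergic neurons.

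Droplet-based single-cell RNA sequencing was run on 4 striatal libraries, 2 from WT mice and 2 from Setd1a+/- littermates, all male and on the C57BL/6N background. Setd1a+/- mice carry 1 allele with a frameshift deletion upstream of the catalytic SET domain made by CRISPR-Cas9 in the germline, and each library holds the tissue of 2 mice pooled. The labels name the tissue as NAc and give 8 to 10 weeks of age, whereas the paper describes dorsal and ventral striatum and older mice, and neither entered a test. Both genotypes received no treatment.

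MSNs are GABAergic projection neurons and form the bulk of striatal neurons. The direct-pathway type carries the dopamine receptor Drd1 with the peptides Tac1 and Pdyn, and the indirect-pathway type carries Drd2, Adora2a and Penk. Interneurons stay within the striatum and fall into types known for Sst, Npy and Nos1, for Pvalb or Pthlh, for Th, for calretinin (Calb2), or for acetylcholine. MSNs are born in the lateral ganglionic eminence, and most striatal interneurons in the medial ganglionic eminence and the preoptic region, under Nkx2-1 and Lhx6.

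The peptide genes Sst and Cartpt are shown with the bases around a cAMP response element, TGACGTCA, because the element lies before the RefSeq start of both genes and their levels, described further on, were higher on different sides. Each line gives 30 bases on the gene's own strand, 5′ to 3′, from RefSeq (GRCm38.p6), with the element in capitals. They lie at chr16:23890874-23890903 (minus strand) for Sst and chr13:99900777-99900806 (minus strand) for Cartpt.
Sst: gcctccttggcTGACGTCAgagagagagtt
Cartpt: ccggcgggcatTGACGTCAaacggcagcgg
The element begins 48 bases before the RefSeq start of Sst and 112 bases before that of Cartpt. The annotations differ in where these genes begin, at position 23890844 in RefSeq and 23890958 in GENCODE for Sst, and at 99900683 and 99901091 for Cartpt. All 30 bases shown for each gene therefore lie upstream of the gene in RefSeq and within a 5′ untranslated region in GENCODE. Searched on both strands, TGACGTCA stands in 508 of 32851 RefSeq windows of 250 bases (1.55%). Of the 21 neuropeptide genes listed, 17 have a window, and only the windows of Sst and Cartpt held the element. Sst was higher in interneurons and Cartpt in MSNs, so the element did not go with 1 side. A match of letters is a description and not a binding site.

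The 4 libraries held between 17440876 and 26277553 unique molecular identifiers (UMIs). MSNs contributed 21656070 UMIs with a median of 3272 per cell, and interneurons 4408571 with a median of 4787. The median interneuron held more UMIs than the median MSN in each library (3799.5 to 5829 against 2700 to 3840). Over all annotated striatal cells, the fewest genes detected were 800 and the highest mitochondrial share was 9.99%. Among neurons, 21 barcodes occurred in more than 1 library. Levels are given as CPM, the UMIs of a gene per 1000000 UMIs summed over the cells of 1 side in 1 library. The values of 4 libraries are listed as WT replicates 1 and 2, then Setd1a+/- replicates 1 and 2.

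The labels were checked against the markers of both sides. The 13 MSN markers summed to between 8439 and 9624 CPM in MSNs and to between 737 and 984 CPM in interneurons. The 16 interneuron markers summed to between 79.2 and 129 CPM in MSNs and to between 4577 and 11429 CPM in interneurons. Summed over its cells, each label therefore carried its own markers. Sst and Npy made up most of the interneuron sum and stood mostly in 82 of the interneurons. The sum therefore does not describe every cell of that label. Neurons of another class were found within the interneuron label, however. The 7 glutamatergic neuron markers, among them Slc17a7, Slc17a6, Neurod6, Neurod2, Tbr1 and Nrn1, summed to between 425 and 620 CPM in interneurons and to between 2.80 and 4.88 CPM in MSNs.

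These transcripts were concentrated in part of the cells. Of the 821 interneurons, 196 held at least 2 UMIs of the 7 glutamatergic genes and more of them than of Gad1, Gad2 and Slc32a1 together, a rule set after the data were seen. They were 23.87% of interneurons (95% Wilson interval 21.08 to 26.91%, counting error only), and between 20.63% and 26.02% in the 4 libraries. Their median was 10 UMIs of the glutamatergic genes, and 158 of the 196 held no UMI of Gad1, Gad2 or Slc32a1. Of the other interneurons, 611 held 0 UMIs of the glutamatergic genes and 14 held 1. Among 6355 MSNs, 4 met the rule. The tests below were run on all interneurons, as the label gives them, and again on the 625 that did not meet the rule, whose glutamatergic markers summed to at most 7.30 CPM.

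**Figure D1:**
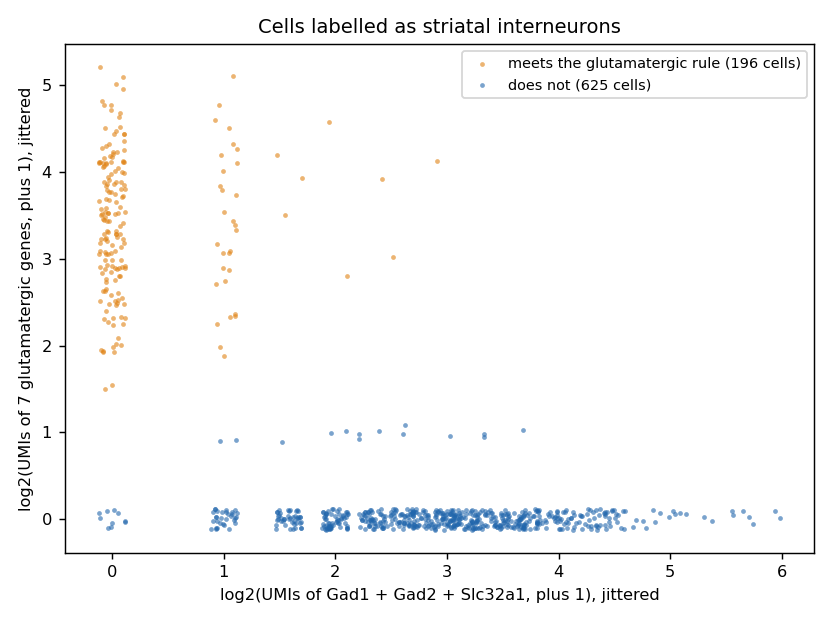
Each point is 1 of the 821 cells labelled as interneurons, plotted by its UMIs of 3 GABAergic genes (horizontal axis) and of 7 glutamatergic genes (vertical axis), both as log2 of the count plus 1 with a small jitter. The 196 cells that met the glutamatergic rule lie above and to the left of the 625 others, with 14 cells at 1 glutamatergic UMI between them.

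Both sides were compared with edgeR's quasi-likelihood test on UMIs summed per library and side, paired within libraries, and a gene was called at a false discovery rate (FDR) under 0.05 and a fold change (FC) above 2. Of 10650 genes tested, 1799 were called (16.9%), 770 of them higher in MSNs (7.23%) and 1029 higher in interneurons (9.66%). Without the 196 glutamatergic cells, 1894 of 10369 genes were called (18.3%), 950 higher in MSNs (9.16%) and 944 higher in interneurons (9.1%). The D1, D2 and Inhib labels came from clusters of these same cells, so a call shows that a difference recurred over 4 libraries and is no independent evidence that the types differ. For the markers of either side, no p value or FDR of this comparison is therefore given. Some markers are given with a fitted log2 value or fold, and the counts of gene lists include markers that were called. Neither is evidence that these markers separate the types. Counts of gene lists below are to be read beside the shares of all genes, 7.23% and 9.66%, or 9.16% and 9.1% without the glutamatergic cells. A gene not called can still have passed the FDR cutoff with a smaller fold, as 3480 of the 8851 uncalled genes did. In log2 values, a positive sign means higher in MSNs, and the median over all tested genes was 0.01.

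**Figure D2:**
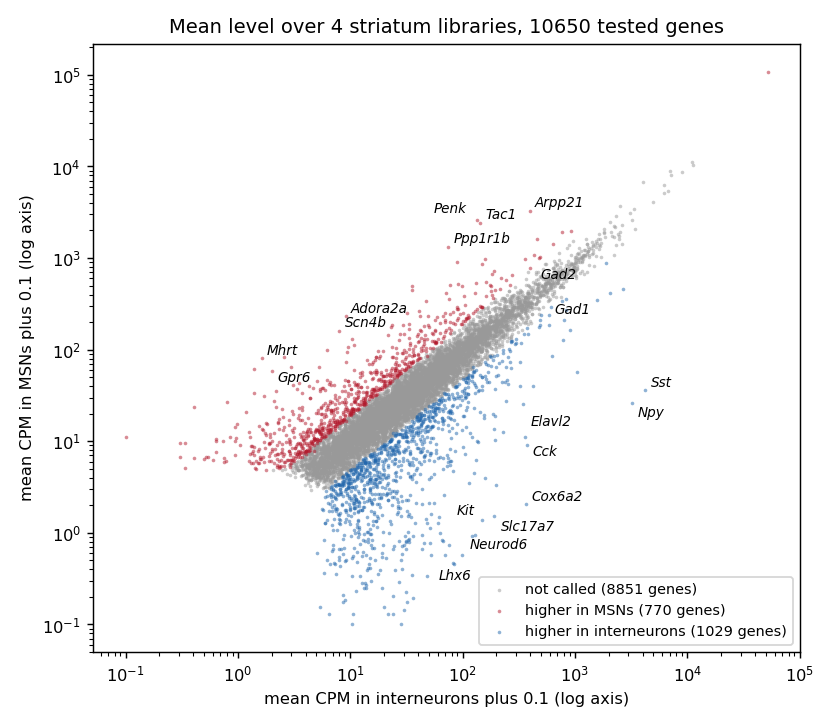
Each point is 1 of 10650 tested genes, plotted by its mean CPM plus 0.1 over the 4 libraries in interneurons (horizontal, log axis) and in MSNs (vertical, log axis), with 770 genes called higher in MSNs in red and 1029 called higher in interneurons in blue. The genes with the lowest levels in MSNs lie at the bottom among those higher in interneurons, while Gad1 and Gad2 lie close to the diagonal.

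Higher in MSNs were genes of the machinery that links dopamine and adenosine receptors to cAMP. Ppp1r1b (chr11:98348404-98357796, GRCm38), which encodes the phosphatase inhibitor DARPP-32, was at 1186, 1697, 1175 and 1221 CPM in MSNs and at 53.8, 118, 66.5 and 61.3 CPM in interneurons. The ranges lie far apart, and the fitted level was 18.7-fold higher in MSNs. Its level in interneurons was also within that of glia, endothelial cells and neuroblasts (41.7 to 374 CPM), and droplets with at most 50 UMIs held 812 to 956 CPM. With every cell thinned to 1000 UMIs, Ppp1r1b was found in 66.28% of MSNs, in 4.87% of interneurons and in 4.18% of oligodendrocytes, and before thinning in 89.14%, 21.92% and 8.27%. The 95% intervals of the thinned shares in interneurons (3.60 to 6.57%) and oligodendrocytes (3.44 to 5.07%) overlapped.

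Rgs9, whose product speeds the shut-off of dopamine receptor signaling, was at 502, 499, 496 and 476 CPM in MSNs against 28.8, 42.8, 34.5 and 34.9 CPM in interneurons, 14.7-fold apart. Arpp21, a cAMP-regulated phosphoprotein of MSNs, was at 3241, 3426, 3456 and 3029 CPM in MSNs and at 468, 428, 371 and 311 CPM in interneurons (8.75-fold, log2 3.13 ± 0.06 (SE), FDR 7.34e-20 from edgeR). For both genes each of the 4 libraries had the higher value in MSNs and the sides did not overlap.

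Of the 29 tested members of the DARPP-32 and cAMP list, 22 were higher in MSNs, 2 were higher in interneurons and 5 were not called, with a median log2 value of 1.75. Higher in MSNs were the adenylyl cyclase Adcy5 (log2 2.93 ± 0.10), the G protein subunits Gnal (1.75 ± 0.08) and Gng7 (3.06 ± 0.10), and the phosphodiesterases Pde10a (2.00 ± 0.11), Pde1b (2.63 ± 0.07) and Pde7b (3.56 ± 0.23). The striatal phosphatase Ptpn5 (2.40 ± 0.07) and the small G protein Rasd2 (2.41 ± 0.11) were on the same side. Pde7b passed the filter only through MSNs, so its log2 value is no measured fold. Other adenylyl cyclases lay on the interneuron side. Adcy1, a calcium-stimulated cyclase, was at 101, 97.9, 108 and 119 CPM in interneurons and at 11.0, 15.1, 17.1 and 13.8 CPM in MSNs (log2 -2.84 ± 0.12, FDR 4.78e-14 from edgeR). Adcy2 also was higher in interneurons (-2.30 ± 0.17). Without the glutamatergic cells, 23 members were higher in MSNs and the same 2 cyclases in interneurons.

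Among receptors for the striatal modulators, Adora2a, an adenosine receptor, was at 246, 247, 220 and 208 CPM in MSNs and at 6.06, 6.58, 11.1 and 12.3 CPM in interneurons. The sides were 28.1-fold apart and did not overlap, and within MSNs the level was 10.5 CPM in D1 and 568 CPM in D2 cells. Drd1 (93.0 ± 6.91 against 25.9 ± 10.1 CPM, SD, n = 4 libraries) and Drd2 (77.4 ± 7.62 against 16.4 ± 7.44 CPM) were also higher in MSNs. With D2 cells alone in place of all MSNs, Drd1 was called higher in interneurons (log2 -2.24). With D1 cells alone, the direction for Drd2 was reversed. Drd2 was at 128 CPM in the cholinergic cells described below (33 UMIs, 22.7 to 313 CPM per library) and at most 18.5 CPM in the other groups of interneurons. The muscarinic receptor Chrm1 was higher in MSNs by 1.02 ± 0.13 (log2, 1.65 without the glutamatergic cells), whereas the muscarinic receptors Chrm2 and Chrm3 were higher in interneurons by 5.26 ± 0.37 and 2.61 ± 0.31. Chrm2 had 2 UMIs in the cholinergic cells described below (7.76 CPM), and was at 31.0 CPM in the cells with Pvalb, Pthlh or Kit and 30.8 CPM in those with Sst and Npy. Of 9 tested receptor genes of this list, 4 were higher in MSNs and 3 in interneurons (median -0.11), and without the glutamatergic cells 5 and 2 of 8. Adora1, another adenosine receptor, was at 49.5 ± 7.11 CPM in MSNs and 57.2 ± 12.7 CPM in interneurons and was not called, but without the glutamatergic cells interneurons were at 19.5 CPM and it was called higher in MSNs (log2 1.45). The dopamine receptor gene Drd5 had 0 UMIs in MSNs and 26 in interneurons, at least 42.6-fold higher in interneurons against a floor of 3 UMIs (at least 25.8-fold without WT replicate 2), and stood at 50.5 CPM in the cholinergic cells described below.

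Neuropeptide genes lay on both sides. Penk, the enkephalin precursor, was at 2674, 2565, 2769 and 2290 CPM in MSNs and at 176, 115, 107 and 135 CPM in interneurons. Tac1, the substance P precursor, was at 2580, 2459, 2589 and 2084 CPM in MSNs and at 131, 202, 127 and 112 CPM in interneurons. They were 19.99-fold and 17.7-fold higher in MSNs, with no overlap between sides, and Tac1 reached 513 CPM in the interneurons with Sst and Npy. Pdyn, the dynorphin precursor, was at 232 ± 45.8 CPM in MSNs and 41.7 ± 16.2 CPM in interneurons. With D2 cells alone in place of all MSNs, Pdyn was called higher in interneurons (log2 -1.72). Cartpt, the precursor of the CART peptides, was at 1111, 725, 1140 and 967 CPM in MSNs against 304, 92.1, 137 and 107 CPM in interneurons (log2 2.71 ± 0.13, FDR 3.50e-13 from edgeR). Its lowest MSN library was above its highest interneuron library.

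Sst (chr16:23889573-23890958, GRCm38), the somatostatin precursor, was at 2040, 5692, 5525 and 3681 CPM in interneurons and at 24.1, 50.1, 35.3 and 33.4 CPM in MSNs. Npy was at 1091, 4215, 3605 and 3958 CPM in interneurons and at 15.4, 34.9, 25.9 and 29.1 CPM in MSNs. Sst was 108-fold and Npy 111-fold higher in interneurons, and WT replicate 1 had the lowest level of both on both sides. The level of Sst in MSNs was within that of glia, endothelial cells and neuroblasts (22.3 to 50.1 CPM). Thinned to 1000 UMIs, 13.15% of interneurons held a Sst UMI (11.01 to 15.64%), as did 3.82% of MSNs and 3.92% of oligodendrocytes, and before thinning 20.83%, 9.98% and 6.82%. The thinned share in MSNs is at the background of a type that should lack the gene.

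Of the 16 tested neuropeptide genes, 4 were higher in MSNs, 10 in interneurons and 2 were not called (median -4.45). Besides Sst and Npy, the parathyroid hormone-like peptide Pthlh was at 141, 133, 118 and 88.6 CPM in interneurons and at 0.43 to 1.21 CPM in MSNs. Cck (378 ± 117 against 9.05 ± 2.19 CPM), the thyrotropin-releasing hormone gene Trh (79.3 ± 30.8 against 5.96 ± 2.29 CPM) and the prepronociceptin gene Pnoc (60.0 ± 21.7 against 1.17 ± 0.65 CPM) were higher in interneurons, as was Cort by 2.33 ± 0.31 (log2). The galanin gene Gal had 116 UMIs in interneurons and 0 in MSNs, at least 190-fold higher against a floor of 3 UMIs, or at least 88.1-fold without Setd1a+/- replicate 2, which held 64 of the UMIs. The secreted neurexin ligand gene Nxph1 was at 197 ± 36.8 CPM in interneurons and 3.25 ± 1.52 CPM in MSNs. Cck was the exception in its source, at 908 CPM in the glutamatergic cells, and without them interneurons were at 156 CPM, with log2 -3.96 in place of -5.34. Vip varied from 0 to 284 CPM between the interneuron libraries (108, 0, 1.23 and 284 CPM) and did not pass the filter on low counts.

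**Figure D3:**
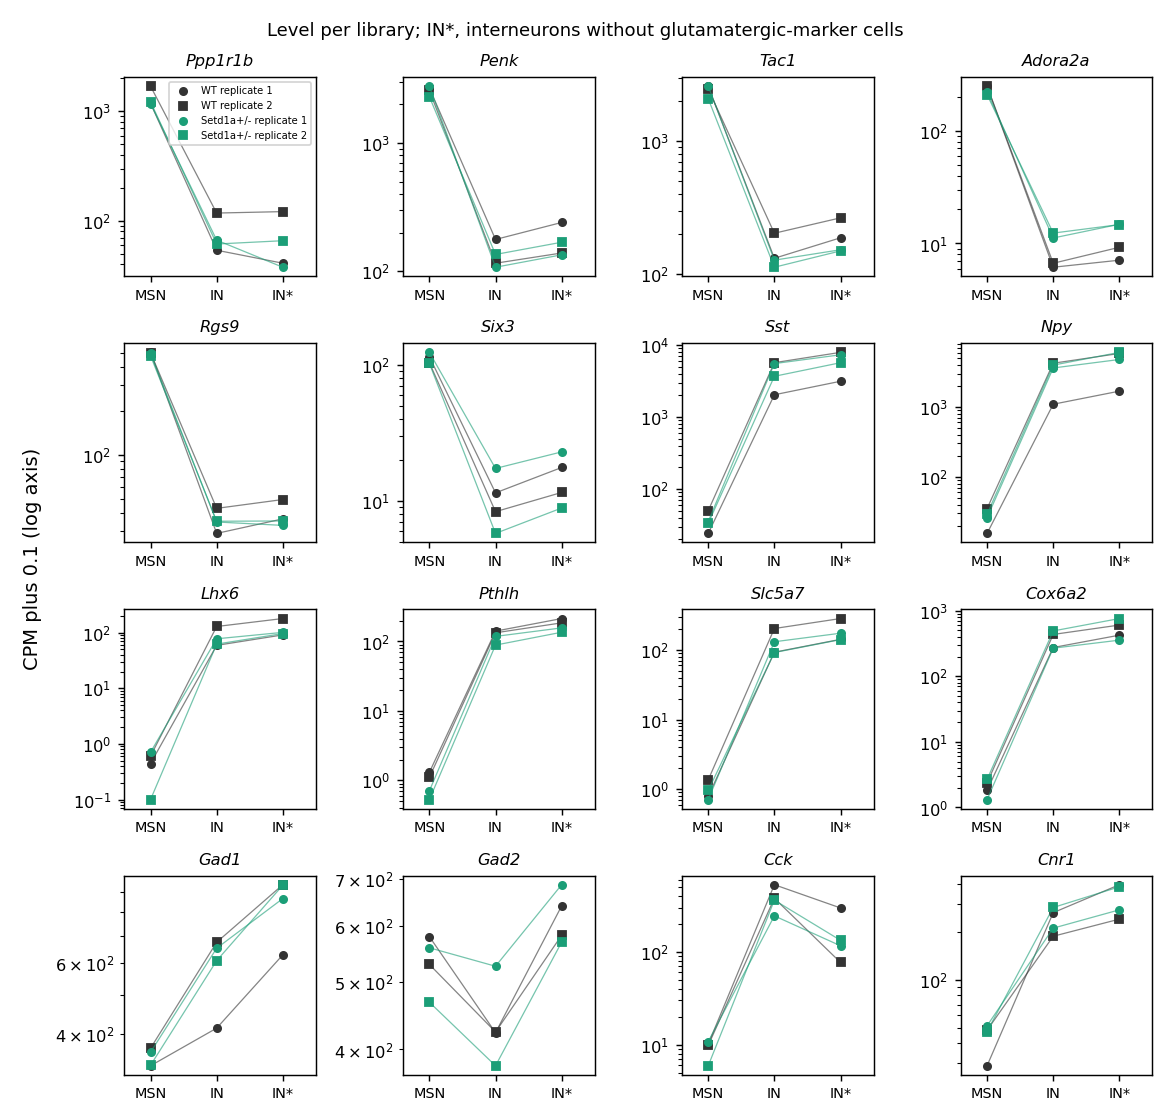
Levels of 16 genes are plotted per library as CPM plus 0.1 (log axis), with a line for each of the 4 libraries (black for WT, green for Setd1a+/-, circles for replicate 1 and squares for replicate 2) joining MSNs, all interneurons (IN) and interneurons without the glutamatergic cells (IN*). The 6 MSN genes of the first panels fall from MSNs to both interneuron sets and Sst, Npy, Lhx6, Pthlh, Slc5a7 and Cox6a2 climb, while Gad2 is lower in IN than in MSNs and higher in IN*.

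GABA synthesis did not separate the sides at the FC cutoff. Gad1, which makes most cellular GABA, was at 334, 369, 361 and 335 CPM in MSNs and at 414, 675, 653 and 608 CPM in interneurons (log2 -0.65 ± 0.07, not called). Gad2, the synaptic form, was at 580, 529, 559 and 467 CPM in MSNs and at 423, 424, 526 and 379 CPM in interneurons (0.37 ± 0.06, not called). Each library had more Gad1 and less Gad2 in interneurons. The vesicular GABA transporter Slc32a1 was at 280 ± 28.8 and 219 ± 30.9 CPM (0.43 ± 0.06, not called). Without the glutamatergic cells, Gad1 was called higher in interneurons (841 CPM, log2 -1.19), and Gad2 and Slc32a1 had log2 values of -0.15 and -0.11.

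Of the 15 tested genes for transmitter synthesis and transport, 10 were higher in interneurons and 0 in MSNs (median -1.84). The choline transporter Slc5a7 (chr17:54273590-54299034, GRCm38) was at 92.4, 202, 131 and 91.5 CPM in interneurons and at 0.69, 1.26, 0.609 and 0.861 CPM in MSNs, 136-fold apart with no overlap. Chat, which makes acetylcholine, had 48 UMIs in interneurons and 1 in MSNs, a ratio of 236 with a counting interval from 40.3 to 9505. Slc18a3, the vesicular acetylcholine transporter, lies within the Chat locus, so reads of the pair may be hard to assign, and had 88 UMIs in interneurons and 3 in MSNs (ratio 144, 47.7 to 712). Nos1, neuronal nitric oxide synthase, was at 65.9, 173, 166 and 102 CPM in interneurons and at 3.40 to 5.81 CPM in MSNs. Th, which makes the precursor of dopamine, was at 57.8 ± 18.8 and 8.01 ± 2.58 CPM, and Slc17a8, the glutamate transporter of cholinergic neurons, at 31.3 ± 16.9 and 0.13 ± 0.09 CPM. Among these 10 genes, Slc17a7 and Slc17a6 were the exceptions, as they were used to find the glutamatergic cells and did not pass the filter without them.

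Most transcription factors of the MSN list were higher in MSNs, and most of the interneuron list in interneurons. Six3, which acts in the making of indirect-pathway MSNs, was at 115, 104, 124 and 103 CPM in MSNs and at 11.4, 8.23, 17.2 and 5.66 CPM in interneurons (log2 3.51 ± 0.16, FDR 7.38e-14 from edgeR). The lowest MSN library was above the highest interneuron library. Of 14 tested factors of the MSN list, 10 were higher in MSNs and 0 in interneurons (median 1.74), among them Foxp1 (2.74 ± 0.10), Foxp2 (1.94 ± 0.09), Meis2 (1.86 ± 0.07), Rarb (2.26 ± 0.12), Rxrg (2.99 ± 0.11) and Bcl11b (1.38 ± 0.08). With D2 cells alone in place of all MSNs, the log2 value of Foxp2 was slightly negative, as given in the last section. Lhx6, a factor of medial ganglionic eminence interneurons, was at 59.1, 129, 77.6 and 62.2 CPM in interneurons and at 0.345, 0.504, 0.609 and 0 CPM in MSNs, 205-fold apart. In thinned cells Lhx6 was found in 7.55% of interneurons, in 2 of 6355 MSNs (0.03%) and in 0.04% of oligodendrocytes.

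Of 18 tested factors of the interneuron list, 15 were higher in interneurons, 1 in MSNs and 2 were not called (median -4.05). They included Lhx8 (log2 -6.74 ± 0.25), which directs cholinergic fate, Maf (-5.51 ± 0.26), Sox6 (-5.17 ± 0.38), Zic1 (-4.55 ± 0.22), Prox1 (-4.20 ± 0.36) and St18 (-5.50 ± 0.29). Nkx2-1 had 57 UMIs in interneurons and 3 in MSNs (ratio 93.3, 30.4 to 466). Gbx1 went the other way, with 3 UMIs in interneurons and 130 in MSNs. Satb1 was higher in interneurons by 2.12 ± 0.22 but was not called without the glutamatergic cells. Isl1, a factor of both direct-pathway MSNs and cholinergic neurons, was at 54.3, 52.5, 40.8 and 47.6 CPM in MSNs and at 46.2, 64.2, 73.9 and 33.0 CPM in interneurons. The sides overlapped and Isl1 was not called. Behind the near-equal sums, D1 cells were at 82.6 and D2 cells at 1.84 CPM, and within interneurons the cholinergic cells were at 357 CPM (92 UMIs) and the remaining cells, described below, at 86.8 CPM (128 UMIs).

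**Figure D4:**
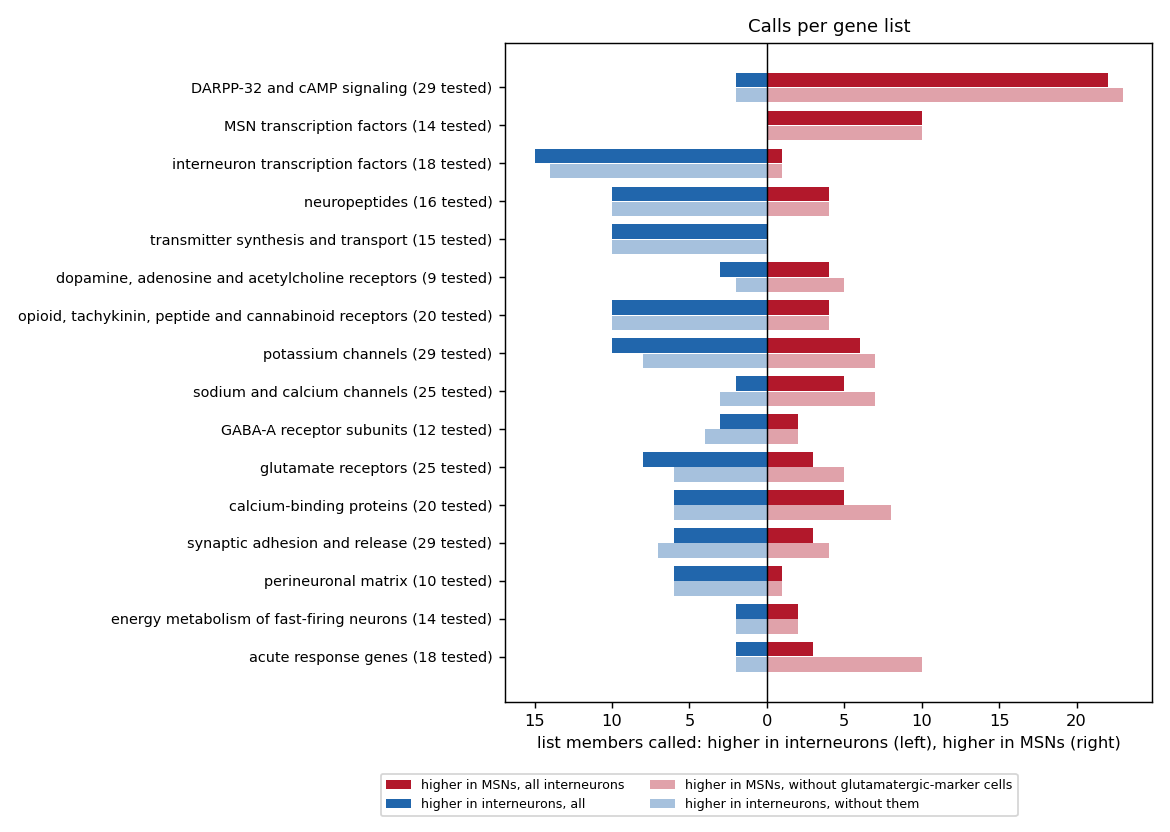
Bars count the members of 16 gene lists called higher in MSNs (right, red) and higher in interneurons (left, blue), with all interneurons in full color and without the glutamatergic cells in pale color, and the number of tested members beside each name. The DARPP-32 and MSN transcription factor lists point to MSNs (22 and 10 members), and the interneuron transcription factors, neuropeptides and transmitter genes to interneurons (15, 10 and 10).

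Among channels, Scn4b, a sodium channel subunit that supports resurgent current, was at 126, 168, 136 and 211 CPM in MSNs and at 3.03, 10.7, 3.69 and 14.1 CPM in interneurons (log2 4.41 ± 0.16, FDR 2.16e-15 from edgeR). No interneuron library reached the MSN range. Kcnc1, a fast delayed rectifier potassium channel (Kv3.1), was at 116, 98.7, 94.8 and 114 CPM in interneurons and at 31.7, 25.5, 33.8 and 27.1 CPM in MSNs (log2 -1.79 ± 0.11, FDR 1.20e-11), also with no overlap. Of 29 tested potassium channel genes, 6 were higher in MSNs and 10 in interneurons (median -0.55), and 13 were not called. The shares over all genes were 7.23% and 9.66%. The inward rectifiers Kcnj4 (1.71 ± 0.16) and Kcnj2 (2.60 ± 0.35), known for holding MSNs at a low resting potential, the A-type subunits Kcna4 (1.54 ± 0.14) and Kcnip2 (2.38 ± 0.11), and the leak channel Kcnk2 (1.89 ± 0.17) were higher in MSNs. Kcnc2 (-3.25 ± 0.25), Kcnc4 (-3.99 ± 0.27) and the G protein-gated rectifier Kcnj6 (-3.90 ± 0.34) were higher in interneurons. Kcns3 had 28 UMIs in interneurons and 1 in MSNs (ratio 138, 22.7 to 5624). The glutamatergic cells held 9 Kcnj2, 78 Kcnj4 and 76 Kcnc4 UMIs. Without those cells interneurons were at 0.365 CPM of Kcnj2 in place of 2.21, at 16.8 CPM of Kcnj4 in place of 28.9 and at 16.7 CPM of Kcnc4 in place of 27.5. Kcnj2 was still called (5.20), but at that level it passed the filter only through MSNs, so the value is no measured fold. Kcnj4 (2.47) and Kcnc4 (-3.23) were also still called without the glutamatergic cells. Kcnmb4 was called higher in interneurons (-1.39 ± 0.13) but had a log2 value of 0.01 without them, and Kcnj6 did not pass the filter (9.18 CPM in place of 14.4). In that comparison, 7 members of the list were higher in MSNs and 8 in interneurons.

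Of 25 sodium and calcium channel genes, 5 were higher in MSNs and 2 in interneurons (median 0.32), so that the count on the interneuron side lies near the 9.66% of all genes. Of the 18 not called, 15 passed the FDR cutoff but not the FC cutoff. Scn1a (log2 -1.10 ± 0.10) and the T-type channel Cacna1g (-2.85 ± 0.39) were the 2 on the interneuron side. The calcium channel subunit Cacna2d3 was higher in MSNs (1.60 ± 0.10), but was at 148 CPM in the cholinergic cells described below.

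Receptor subunits for GABA and glutamate were called on both sides. Gabra4 (log2 1.55 ± 0.09) and Gabrd (1.66 ± 0.12), known as partners in extrasynaptic receptors, were higher in MSNs, and Gabra3 (-1.48 ± 0.13) and Gabrq (-4.49 ± 0.49) were higher in interneurons, with 7 of 12 tested GABA-A subunits not called (median -0.37). Gabrd was at 160 CPM in the interneurons with Pvalb, Pthlh or Kit, described below. Of 25 tested glutamate receptor genes, 3 were higher in MSNs and 8 in interneurons, and 14 were not called (median 0.17). Of all genes, 7.23% and 9.66% were called on these sides, and the glutamate receptor count on the MSN side lies near the first share. The NMDA receptor subunit Grin3a was at 38.8 ± 4.62 CPM in interneurons and 3.52 ± 1.43 CPM in MSNs (-3.42 ± 0.22, FDR 2.95e-11 from edgeR), Grin2d was higher in interneurons by 4.25 ± 0.50, the kainate subunit Grik1 by 4.18 ± 0.44 and the AMPA subunit Gria4 by 1.30 ± 0.14. The metabotropic receptors Grm4 (2.07 ± 0.20) and Grm7 (1.36 ± 0.15) and the kainate subunit Grik2 (1.27 ± 0.14) were higher in MSNs. Without the glutamatergic cells the counts were 2 and 4 for GABA-A subunits and 5 and 6 for glutamate receptors.

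Peptide and cannabinoid receptors were more often on the interneuron side, with 10 of 20 tested genes higher in interneurons and 4 higher in MSNs (median -1.30). The shares over all genes were 9.66% and 7.23%. Cnr1, the CB1 cannabinoid receptor, was at 265, 188, 212 and 286 CPM in interneurons and at 28.8, 48.3, 51.5 and 47.3 CPM in MSNs (log2 -2.38 ± 0.13, FDR 3.31e-12 from edgeR), and was at 600 CPM in the cells with Pvalb, Pthlh or Kit. The lowest interneuron library was above the highest MSN library. The tachykinin receptors Tacr1 (-3.74 ± 0.21) and Tacr3 (-4.65 ± 0.40), whose ligands derive from Tac1 and Tac2, were higher in interneurons, with Tacr1 at 268 CPM in cholinergic and 195 CPM in Sst and Npy cells. The CRH binding protein gene Crhbp (-6.52 ± 0.27), the neuregulin receptor Erbb4 (-2.50 ± 0.16) and Npy2r (-1.61 ± 0.28) were on the same side. The orphan receptor Gpr6, a gene of indirect-pathway MSNs, was at 53.0, 60.1, 61.2 and 57.9 CPM in MSNs and at 0 to 3.29 CPM in interneurons. Within MSNs it was at 128 CPM in D2 against 11.1 CPM in D1 cells. Gpr6 passed the filter only through MSNs, so its log2 value (4.87 ± 0.26) is no measured fold. The kappa opioid receptor Oprk1 was higher in MSNs (1.57 ± 0.17, and 2.33 without the glutamatergic cells).

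Calcium-binding proteins were called on both sides as well, 5 of 20 higher in MSNs and 6 in interneurons (median 0.03), beside 7.23% and 9.66% of all genes. Without the glutamatergic cells, 8 were higher in MSNs and 6 in interneurons (median 0.52). Hpca (hippocalcin) was at 813, 1018, 809 and 778 CPM in MSNs and at 127, 191, 118 and 163 CPM in interneurons (log2 2.58 ± 0.07, FDR 6.14e-18 from edgeR). Calb1 (calbindin) was higher in MSNs (1.68 ± 0.12), but was at 345 CPM in the cholinergic cells described below. Pvalb was at 54.5, 74.8, 32.0 and 98.1 CPM in interneurons and at 0.172 to 1.29 CPM in MSNs, and Calb2 at 223, 153, 150 and 228 CPM in interneurons and 8.82 to 17.5 CPM in MSNs. For Hpca, Pvalb and Calb2 the sides did not overlap. Ncald was higher in interneurons by 3.35 ± 0.10.

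Perineuronal matrix genes were mostly on the interneuron side. Hapln1, a link protein of perineuronal nets, was at 37.1, 62.5, 56.7 and 52.8 CPM in interneurons and at 0.345, 0.126, 1.22 and 0.215 CPM in MSNs. It passed the filter only through interneurons, so its log2 value (-6.92 ± 0.30) is no measured fold. Adamts5 (-5.35 ± 0.29), a protease that cuts matrix proteoglycans, and the link protein Hapln4 (-4.28 ± 0.30) were also higher in interneurons, 6 of 10 tested matrix genes in all, while Reln (reelin) was the 1 member higher in MSNs (41.3 ± 7.75 against 11.4 ± 5.44 CPM, 1.99 ± 0.19). Median values were -1.41 for the matrix list and -0.62 for the list of synaptic adhesion and release. In the synaptic list, 3 of 29 tested genes were higher in MSNs and 6 in interneurons, beside 7.23% and 9.66% of all genes. Of the 20 not called, 17 passed the FDR cutoff but not the FC cutoff. Cntnap4 (-4.49 ± 0.24), Lypd6 (-5.99 ± 0.38) and Elfn1 (-3.20 ± 0.37) were higher in interneurons, and Syt6 (1.71 ± 0.12) and Syt2 (2.56 ± 0.36) in MSNs. Cbln2, a synaptic organizer, had 87 UMIs in interneurons and 1 in MSNs (ratio 427, 74.7 to 17072), 59 of the 87 in the glutamatergic cells. Syp (synaptophysin) was called higher in interneurons (-1.07 ± 0.07), and not without the glutamatergic cells.

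In the list for energy metabolism, 2 of 14 tested genes were higher in MSNs and 2 in interneurons (median -0.19), beside 7.23% and 9.66% of all genes. The other 10 were not called, and all 10 passed the FDR cutoff but not the FC cutoff. Cox6a2, a subunit of mitochondrial complex IV known from muscle and from Pvalb interneurons, was at 275, 435, 268 and 492 CPM in interneurons and at 1.72, 2.27, 1.22 and 2.58 CPM in MSNs (log2 -7.44 ± 0.11, FDR 8.65e-22 from edgeR). Ppargc1a was at -1.49 ± 0.13 and Ckb at 1.18 ± 0.04. Of 18 tested acute response genes, 3 were higher in MSNs (Junb, Egr2 and Nr4a1, the last by 1.70 ± 0.10) and 2 in interneurons (Ier2 and Hspa1a), and without the glutamatergic cells 10 and 2 (medians 0.45 and 1.02), and the count on the interneuron side lies near the 9.66% of all genes. Homer1 was among those added, with log2 values of 0.73 and 1.91 for the same contrast. The tissue had been digested with warm papain, and the part of this step was not tested.

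Outside the lists, genes at 50 CPM or more that favored MSNs included Mhrt (80.6 ± 38.7 against 1.52 ± 0.58 CPM, log2 5.74 ± 0.23), Gm33651 (5.55 ± 0.27), Serpina9 (5.14 ± 0.23), the lipoprotein lipase Lpl (4.52 ± 0.23), Dmkn (3.99 ± 0.20, and 5.28 without the glutamatergic cells) and Pcp4l1. Mhrt is a noncoding RNA antisense to Myh7, and reads of the pair can be told apart only by strand. Mhrt, Gm33651 and Lpl passed the filter only through MSNs, so their log2 values are no measured folds. Pcp4l1, a Purkinje cell protein 4 relative, was at 938, 989, 834 and 896 CPM in MSNs and at 87.1, 95.4, 77.6 and 98.1 CPM in interneurons (3.43 ± 0.06, FDR 1.24e-20 from edgeR). Nexn, Strip2, Syndig1l, Asic4 and Carhsp1 had log2 values from 3.04 to 3.60.

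Genes outside the lists that favored interneurons included Slc10a4 (log2 -7.00 ± 0.27), a vesicular transporter known from cholinergic neurons, Hs3st2 (-5.97 ± 0.22), Ifitm10 (-5.60 ± 0.25), Id2 (-5.46 ± 0.25), Nr4a2 (-5.38 ± 0.21) and the neuronal RNA-binding protein gene Elavl2. Elavl2 was at 311, 394, 362 and 374 CPM in interneurons and at 12.8, 10.7, 10.4 and 10.1 CPM in MSNs (-4.95 ± 0.10, FDR 8.33e-20 from edgeR), was above 230 CPM in each group of interneurons, and reached 1157 CPM in cholinergic cells. Olfm2, Gpx3, Cadps2, 3110035E14Rik, Prr13 and Crabp1 had values from -4.93 to -4.22. Nr4a2 and 3110035E14Rik were highest in the glutamatergic cells (185 and 418 CPM), as were Hs3st2 (127 CPM) and Id2 (309 CPM). Cadps2 also was highest there, at 107 CPM, against 85.4 CPM in the cholinergic cells. Without those cells, Hs3st2 was at 36.7 CPM in interneurons in place of 63.4 CPM and Id2 at 90.4 CPM in place of 157 CPM, and both were still called. Without those cells, 3110035E14Rik was at 7.46 CPM in interneurons and was not called, and Nr4a2 at 6.00 CPM did not pass the filter.

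Leaving out the glutamatergic cells kept 647 of the 770 MSN calls (84.0%) and 782 of the 1029 interneuron calls (76.0%), and turned 3 genes to the other side, named here after their values were seen. Rasl10a went from -1.12 to 2.90, Lingo1, a regulator of myelination, from -1.09 to 1.36, and Fhl2 from -1.91 to 1.05 on the log2 scale. Interneuron levels of Rasl10a were 53.2 CPM with these cells and 3.24 CPM without, beside 24.0 CPM in MSNs.

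The interneurons were then divided by counts of known markers, with cutoffs chosen after the data were seen and applied in a fixed order, so the genes used are no finding. After the glutamatergic cells, 28 cells with at least 2 UMIs of Chat, Slc5a7 and Slc18a3 formed a cholinergic group (3.41%), with 8, 10, 3 and 7 cells in the 4 libraries. A group of 82 cells with at least 20 UMIs of Sst and Npy followed (9.99%, from 5.29 to 14.49% per library), then 163 cells with at least 2 UMIs of Pvalb, Pthlh and Kit (19.85%), and 352 cells remained (42.87%). Levels in these groups are pooled over libraries and carry no test.

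In the Sst and Npy cells, genes outside the rule included Nos1 at 985 CPM, against at most 34.9 CPM in another group, the hedgehog-binding Hhip at 402 CPM, Chodl at 220 CPM, Nxph2 at 197 CPM and Lhx6 at 402 CPM. Cells with Pvalb, Pthlh or Kit held Cox6a2 at 1790 CPM, against at most 106 CPM elsewhere, Igfbp4 at 812 CPM, Gpr83 at 987 CPM, Nxph1 at 776 CPM, Hapln1 at 229 CPM and Gad1 at 1681 CPM. Cholinergic cells held Slc10a4 at 823 CPM, the acetylcholinesterase anchor Prima1 at 245 CPM, Ecel1 at 683 CPM, Lhx8 at 532 CPM and Slc17a8 at 314 CPM, and had Gad1 at 144 CPM. Each of these groups carried genes that the rule had not used.

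The remaining 352 cells held Calb2 at 345 CPM, Vip at 282 CPM (0 to 843 CPM per library) and Th at 113 CPM, and Gad1 and Gad2 at 542 and 711 CPM. MSN genes were also among their leading genes, with Meis2 at 324 CPM, Cartpt at 395 CPM, Foxp2 at 118 CPM, Pdyn at 89.5 CPM and Rxrg at 82.1 CPM. So were the hemoglobin genes Hba-a1 at 120 CPM (0 to 529 CPM per library) and Hbb-bs at 214 CPM (30.5 to 813 CPM per library), and this group held 177 Hba-a1 UMIs, against at most 11 in another group. Whether single droplets held an MSN and another cell was not tested, and the treatment of doublets is not stated in the sources used here. The glutamatergic cells held Slc17a7 at 617 CPM, Cck at 908 CPM, the vesicle protein gene Sv2b at 328 CPM and Bdnf at 79.6 CPM, with Gad1 at 11.6 CPM. Their median cell had 6867 UMIs, against 4369 in the other interneurons.

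**Figure D5:**
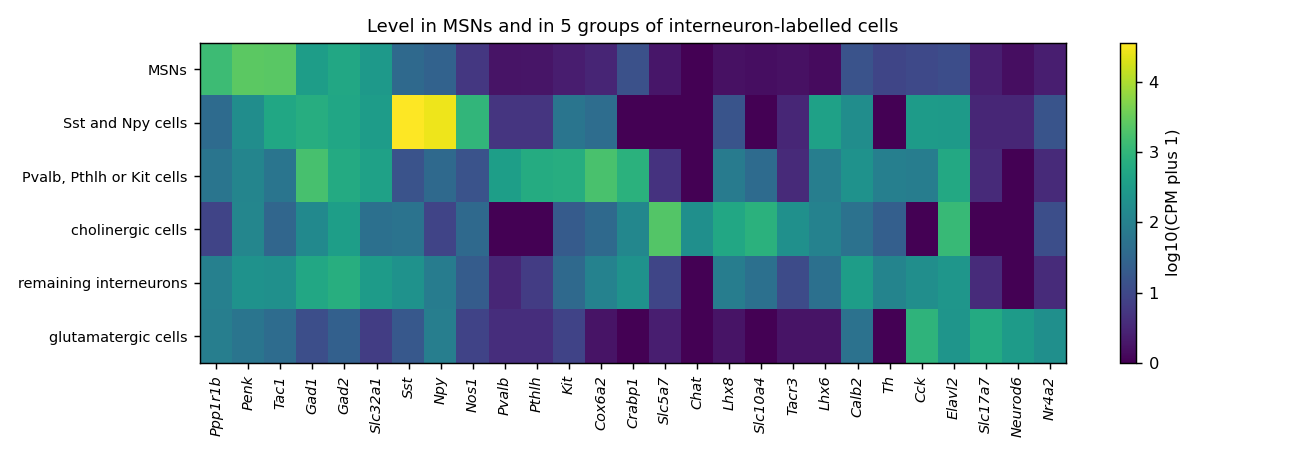
Colors give log10 of the level in CPM plus 1 for 27 genes (columns) in MSNs (mean of 4 libraries) and in 5 groups of interneuron-labelled cells (pooled over libraries). Sst, Npy and Nos1 are brightest in 1 row, Pvalb, Pthlh, Kit and Cox6a2 in another, the acetylcholine genes in the 28 cholinergic cells, and Slc17a7 and Neurod6 in the 196 glutamatergic cells.

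Cells with a UMI of a marker were counted at a fixed depth and at full depth. The share depends on depth, so it counts cells in which the marker was found and does not limit how many cells expressed it. After thinning to 1000 UMIs, Kit was found in 12.18% of interneurons, Calb2 in 11.33%, Pthlh in 7.67%, Nos1 in 6.09%, Th in 5.48%, Slc5a7 and Pvalb in 3.17% each, Vip in 1.22% and Chat in 0.49%. Before thinning these shares were 28.01% for Kit, 20.58% for Calb2, 15.71% for Pthlh, 12.06% for Nos1, 9.62% for Th, 5.48% for Slc5a7, 6.46% for Pvalb, 1.46% for Vip and 2.19% for Chat. In MSNs each of these was found in at most 0.68% of cells after thinning and in at most 1.97% before. For 13 of the 16 interneuron markers the lowest interneuron library was above the highest MSN library, the exceptions being Nkx2-1, Chat and Vip. Without thinning this held for 14 markers, all but Sst and Vip, and at a minimum of 2 UMIs for 10. These markers were chosen as known interneuron genes and the label came from clusters of these same cells, so the counts are no independent evidence. No such share was taken over all genes.

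Markers of other cell types were measured on both sides. Of 4 tested astrocyte markers, 3 were higher in interneurons (Aldoc, Slc1a2 and Slc1a3), and the 8 markers summed to between 462 and 717 CPM in interneurons and between 150 and 222 CPM in MSNs. Without the glutamatergic cells all 4 were higher in interneurons, and the sum was between 466 and 616 CPM. Slc1a2 was at 245 CPM in interneurons and 67.3 CPM without those cells, and Aldoc at 102 and 126 CPM. The other 4 markers, Aqp4 and Gfap among them, did not pass the filter on low counts. Oligodendrocyte markers summed to between 131 and 1043 CPM in MSNs and between 279 and 743 CPM in interneurons, and all 9 were not called, with unadjusted p from edgeR between 0.171 and 0.824. Of the other lists, 1 of 5 microglial markers and 2 of 7 neuroblast markers (Cd24a and Dlx1) were higher in interneurons, and 1 of 6 vascular markers (Vtn) in MSNs. The 1 tested progenitor marker was not called. Over all genes, 9.66% were higher in interneurons and 7.23% in MSNs. Without the glutamatergic cells, 3 of 5 microglial and 3 of 6 neuroblast markers were higher in interneurons. Microglial, vascular and neuroblast sums were at most 248, 99.98 and 292 CPM on either side, and at most 312, 93.1 and 345 CPM in interneurons without the glutamatergic cells. The part of these cell types in the calls was not tested.

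Genotype was compared within each side, over 2 libraries per genotype and at first without a block. Setd1a (chr7:127776670-127800122, GRCm38) was at 15.9 CPM in both WT libraries of MSNs and at 12.5 and 12.7 CPM in the Setd1a+/- libraries, and in interneurons at 13.6 and 16.5 against 9.85 and 14.1 CPM. Both Setd1a+/- libraries were below both WT libraries in MSNs. In interneurons the genotypes overlapped, although within each replicate number the Setd1a+/- library was lower. Neither difference passed the test without a block (log2 -0.29 ± 0.20 and -0.25 ± 0.42), and counts from the 3′ end do not show the deletion. In MSNs, edgeR called 0 of 11737 genes (0.0%), with 258 at an unadjusted p under 0.05 (2.2%), and DESeq2 called 0. With the replicate number as a block, since a WT and a Setd1a+/- library made up each biological replicate, edgeR called 10 (0.0852%). The blocked model fits nearly as many terms as there are libraries, so its calls rest largely on the variance shared between genes. In interneurons, edgeR called 0 of 9195 genes (0.0%), with 279 at an unadjusted p under 0.05 (3.03%), DESeq2 called 0 and the blocked test 8 (0.087%).

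The genes with the smallest p in MSNs were Ankrd61, with 6.38 and 7.31 CPM in WT and 0 in both Setd1a+/- libraries, the interferon-induced Ifi27 (48.8 and 47.0 against 21.6 and 24.5 CPM, log2 -1.004 ± 0.16 in Setd1a+/- over WT) and the immediate early gene Egr2 (12.8 and 13.1 against 26.8 and 24.1 CPM, 1.01 ± 0.18), all with an FDR of 1.0 from edgeR. In interneurons they were Gal (9.09 and 13.2 against 29.6 and 60.3 CPM, 2.09 ± 0.39, FDR 0.664), Cplx3 (58.3 and 89.7 against 17.2 and 29.2 CPM, -1.58 ± 0.31, FDR 0.664) and the serotonin receptor Htr3a (12.1 and 4.94 against 27.1 and 38.7 CPM, 1.98 ± 0.42, FDR 0.768). None of these 6 genes passed the adjusted test without the block. They were chosen by their p values, so the gap between genotypes in them is no finding. With the replicate block, the 10 genes that edgeR called in MSNs were led by hemoglobin genes, which were lower in Setd1a+/- libraries: Hba-a2 (log2 -2.51, FDR 1.64e-06), Hbb-bs (-1.84, FDR 0.000182) and Hbb-bt (-1.77, FDR 0.000225). Ankrd61 (FDR 0.00127) and Ifi27 (FDR 0.00862) were also lower, and Tpm3-rs7, Rpgrip1, Gm26793, Btg3 and Egr2 (FDR 0.0396) were higher. Of these, Tpm3-rs7 was at 58.8 CPM in Setd1a+/- replicate 2 and between 2.41 and 3.35 CPM in the other libraries. In interneurons, the 8 calls included hemoglobin genes in the other direction, with Hba-a1 (3.45, FDR 6.33e-06) and Hbb-bs (1.35, FDR 0.00314) higher in Setd1a+/- libraries. Hba-a1 was at 2.27 and 13.2 CPM in WT against 6.16 and 170 CPM, and Hbb-bs at 32.6 and 88.8 against 55.4 and 270 CPM. For both, Setd1a+/- replicate 1 was below WT replicate 2. The immediate early genes Fos (107 and 85.5 against 287 and 149.9 CPM, 1.18, FDR 0.00295) and Egr3 (1.26, FDR 0.0405), the metallothionein gene Mt2 (28.8 and 30.4 against 186 and 45.3 CPM, 1.84, FDR 0.00579), Ndst4 (2.09, FDR 0.0187) and Gal (FDR 0.00371) were also higher, and Cplx3 was lower (FDR 0.00314). Htr3a was not called with the block (FDR 0.0558). Cplx3 stood mostly in the glutamatergic cells, at 148 CPM there and at most 30.8 CPM in the other groups. The share of these cells among interneurons was 23.32 ± 3.81% in WT and 23.41 ± 3.39% in Setd1a+/- libraries (SD, n = 2 libraries).

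Whether the difference between sides itself differed by genotype was tested as an interaction over the 8 sums, and 4 of 10650 genes passed (0.0376%), with DESeq2 also calling 4. All 4 were hemoglobin genes. Hbb-bs had 287 and 456 CPM in WT MSNs, against 49.97 and 173 CPM in MSNs of Setd1a+/- mice, and stood at 32.6 and 88.8 against 55.4 and 270 CPM in interneurons. It was lower in interneurons than in MSNs in both WT libraries and higher in both Setd1a+/- libraries. The same gene reached 10202 CPM in endothelial cells and from 841 to 2666 CPM in droplets with at most 50 UMIs. No gene of the MSN or interneuron marker lists was called.

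Interneurons were 12.63 and 8.48% of neurons in WT and 13.07 and 12.76% in Setd1a+/- libraries. The means were 10.56 ± 2.93 and 12.91 ± 0.22% (SD, n = 2 libraries), and the difference of 2.36 percentage points did not pass (exact two-sided permutation test, p = 0.333, the smallest this design allows). Without the 196 glutamatergic cells the shares were 9.66 and 6.85% in WT and 10.61 and 9.79% in Setd1a+/- libraries, a difference of 1.94 percentage points (exact two-sided permutation test, p = 0.333). Within each replicate number the Setd1a+/- library had the higher share of neurons, with and without these cells, but the test did not use this pairing. Among all annotated cells the share ranged from 3.64 to 9.94% per library, and in replicate 1 the Setd1a+/- library had the lower share (3.64 against 5.64%).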

How the data were processed

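Tissue from 2 mice was pooled per library and papain-dissociated, and the authors counted UMIs with Cell Ranger 3.0.2 on mm10 and clustered cells with Seurat 3.2.0, per the submitters' processing notes. The deposited values used here are raw UMI counts per gene and cell, with the authors' table of cell labels. The authors removed cells under 800 genes or above 10% mitochondrial reads. Doublet treatment and the counting of antisense reads are not given in the sources used here.

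Counts were summed per library and side (MSN sums from 21656070 UMIs in all, interneuron sums from 4408571) and tested with edgeR 4.0.16 in R 4.3.3, with TMM normalization, filterByExpr at a minimum count of 10, a library block, the quasi-likelihood test and Benjamini-Hochberg adjustment. Calls needed an FDR under 0.05 and a fold above 2 (the interaction, FDR alone). Genotype was tested per side without a block, on sums in place of the single cells that the study's methods test. The replicate numbers pair the samples, since the study's methods state that a WT and a Setd1a+/- library made up each biological replicate. Deviations of same-numbered libraries correlated at 0.468 in MSNs (11737 genes) and 0.119 in interneurons (9195 genes). Replicates are separate pools of mice. DESeq2 1.42.0 was an alternative. The side test was checked on simulated data with known changes, with calls there at the FDR cutoff alone. The simulated counts had no library effects and a common dispersion for all genes. That check therefore does not cover the pairing or genes nearly absent from a side.

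Genes named in the text are members of the gene lists, the 12 unlisted called genes with the largest and the 12 with the smallest log2 value at 50 CPM or more, the 3 genes of smallest p per side for genotype, and the genes called in the interaction. Outside this rule, and chosen after their values were seen, are the 3 genes that changed side without the glutamatergic cells, the genes called for genotype with the replicate block and the leading genes of the groups of interneurons. The members and lists were chosen with earlier results of these data known. The rules that divide interneurons, and the tests without glutamatergic cells, were added after seeing the data. Gene coordinates are from GENCODE for GRCm38. Intervals and floors cover counting error only. Some members that the rule names are not reported here.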

Additional observations from a re-analysis of the deposited data

Results flagged for a closer look

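The difference between MSNs and interneurons differed by genotype for 4 hemoglobin genes (edgeR interaction, 8 sums). The log2 interaction, the MSN minus interneuron difference in Setd1a+/- minus that in WT, was -3.15 for Hbb-bs (FDR 7.31e-09), -4.51 for Hbb-bt (FDR 9.07e-05), -4.38 for Hba-a1 (FDR 8.62e-08) and -3.62 for Hba-a2 (FDR 4.76e-06). Hba-a1 had 69.5 and 156 CPM in WT MSNs, against 10.7 and 109 CPM in MSNs of Setd1a+/- mice, and stood at 2.27 and 13.2 against 6.16 and 170 CPM in interneurons. Without Setd1a+/- replicate 2, Hbb-bt (FDR 0.345) and Hba-a1 (FDR 0.119) were no longer called. Without the library block, each of the 4 had an FDR of 1.0. Hba-a1 and Hba-a2, and Hbb-bs and Hbb-bt, are near-identical copies, so the share of reads given to each is uncertain. The part of free RNA or of blood cells in these values was not tested.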

How the results depend on the processing

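The number of genes that separated MSNs from interneurons (1799 of 10650 tested) was 1700 with DESeq2, 1779 with no replicate block, between 1838 and 2012 with a library left out, and 2584 of 19075 with no filter on low counts. It was 968 of 6887 tested (509 higher in MSNs and 459 in interneurons) with cells thinned to 1000 UMIs, 1143 of 8181 with as many MSNs as interneurons, and 3291 of 10650 at a fold above 1.5. Of the 1799 genes, 866 were still tested after thinning, and 755 were called in the same direction. With as many MSNs as interneurons, 1130 were tested and 1031 called in the same direction. Library size in place of TMM gave 667 and 1123, against 770 and 1029. For genotype, the replicate block gave 10 genes in MSNs and 8 in interneurons and no filter gave 19 and 22. Leaving out a library gave 0 to 26 genes in MSNs (26 without Setd1a+/- replicate 1) and 11 to 39 in interneurons (39 without Setd1a+/- replicate 1), each against 0, with the lone library assumed to vary like the others. The interaction gave 0 genes with no replicate block and 4 to 41 with a library left out (41 without Setd1a+/- replicate 2), against 4. The genotype difference in the interneuron share (2.36 points) ranged from 0.285, without WT replicate 2, to 4.43, without WT replicate 1, with no test there. The causes were not tested.

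Direction reversed for these log2 values. With D2 cells alone, Pdyn was at -1.72, Drd1 at -2.24 and Foxp2 at -0.093, and with D1 cells alone, Drd2 was at -0.95 and Isl1 at 0.66. Pdyn and Drd1 were called higher in interneurons with D2 cells alone. Isl1 was at 0.038 with no filter and ranged from -0.20 to 0.19 with a library left out. Adora1 was at 0.59 in thinned cells. Without the glutamatergic cells, Adora1 was at 1.45, Gad2 at -0.15, Slc32a1 at -0.11, Fhl2 at 1.05, Lingo1 at 1.36, Rasl10a at 2.90, Sv2b at 1.92 and Kcnmb4 at 0.012. Genes under the filter on low counts were not tested, and a gene at 0 UMIs is given against a floor of 3.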
